A study of Mus musculus with 3 samples.

Results

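Heat shock chaperones of the cytosol and the mitochondria were read on the arrays of iBATs treated with isoproterenol (ISO). The list held 38 genes, chosen by name with earlier results of these data known. A probe set is a group of short probes for a transcript. Of the 38 genes, 36 had a probe set that carried their symbol alone, and each was read from its probe set with the highest mean signal over the 3 arrays. On 1 or more arrays 31 of them reached a signal of 100, the minimum for a gene to be read, out of 6896 genes read in all. Signals of Cryab, Dnajb5, Hspa1a, Hspb7 and Hsf2 stayed below 100 on every array, and Hsp90ab1 and Hsf1 were not analysed here.

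iBATs are brown adipocytes differentiated in culture from immortalized pre-iBATs, which the study derived from stromal vascular cells of interscapular brown fat of C57BL/6 pups with a retrovirus for SV40 large T antigen and puromycin selection. All arrays were of cells at day 8 of differentiation, and ISO, the pan-agonist of β-adrenergic receptors, was present for 0, 1 or 2 h. There was 1 array per time point and both later times share the 0 h array, so no replicate error could be estimated and no p-value is given. Differentiation was induced with insulin and indomethacin in all of them, and whether the line is 1 clone is not given in the sources used here. Signals were computed with MAS5, which gives each probe set a linear intensity, and each array was set to a trimmed mean of 100. Among adipocyte markers Fabp4 at 7490.0 and Adipoq at 4986.4 at 0 h were the brightest and Lipe at 315.1 the dimmest. All 6 brown adipocyte markers were read, from Zic1 at 173.2 to Cox7a1 at 2578.3 at 0 h, with Ucp1 at 1485.7. None of 5 macrophage and 4 endothelial markers reached 100. Of 7 preadipocyte and fibroblast markers with a probe set 5 were read, with Col1a2 at 4132.8 and Col3a1 at 4038.3 at 0 h, while Thy1 and Cd34 stayed below 100. The share of undifferentiated cells was not tested.

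Chaperones keep other proteins folded. HSP70 proteins bind exposed stretches of a client, J-domain proteins deliver clients and start ATP hydrolysis, and nucleotide exchange factors such as the BAG proteins and HSP110 let the client go. HSP90 finishes the folding of kinases and receptors, small heat shock proteins hold unfolded clients without ATP, and HSP60 with HSP10 folds proteins inside mitochondria. The heat shock factor HSF1 induces many of these genes through GAA units in alternating orientation. β-adrenergic signalling acts through cyclic AMP and PKA, whose substrates include CREB, with the site TGACGTCA. The study reports a further PKA substrate, JMJD1A, which acts with the SWI/SNF complex and PPARγ. PPAR sites were not searched for here.

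The promoter windows of 6 genes are shown because they hold the motifs that the ratios are later set beside: those of Bag3 and Dnaja4, the genes past the threshold, and those of Hsph1, Dnajb6, Chordc1 and Hspe1, which hold longer heat shock elements. Each window runs from 250 bases before to 50 bases after the annotated start, from RefSeq on GRCm38.p6. They lie at chr7:128523333-128523632 on the plus strand for Bag3, chr9:54699309-54699608 on the plus strand for Dnaja4, chr5:149636266-149636565 on the minus strand for Hsph1, chr5:29735648-29735947 on the plus strand for Dnajb6, chr9:18292017-18292316 on the plus strand for Chordc1 and chr1:55087898-55088197 on the plus strand for Hspe1. Dnaja4, Hsph1 and Dnajb6 each have a second annotated start, whose window is not shown. Sequences are written in the direction of transcription, and capitals mark heat shock units in a pair (TTCNNGAA or GAANNTTC) or in longer runs.
Bag3: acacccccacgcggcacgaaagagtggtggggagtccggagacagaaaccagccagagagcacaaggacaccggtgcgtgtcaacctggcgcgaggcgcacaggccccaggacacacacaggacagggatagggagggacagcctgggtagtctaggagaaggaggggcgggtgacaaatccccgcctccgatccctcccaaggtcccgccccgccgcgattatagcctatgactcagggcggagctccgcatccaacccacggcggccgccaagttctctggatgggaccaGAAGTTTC
Dnaja4: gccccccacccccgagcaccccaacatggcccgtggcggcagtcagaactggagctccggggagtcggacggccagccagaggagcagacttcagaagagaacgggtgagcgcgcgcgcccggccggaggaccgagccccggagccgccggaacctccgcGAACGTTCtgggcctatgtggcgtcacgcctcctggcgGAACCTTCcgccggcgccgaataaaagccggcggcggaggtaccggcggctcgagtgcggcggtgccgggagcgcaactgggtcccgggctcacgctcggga
Hsph1: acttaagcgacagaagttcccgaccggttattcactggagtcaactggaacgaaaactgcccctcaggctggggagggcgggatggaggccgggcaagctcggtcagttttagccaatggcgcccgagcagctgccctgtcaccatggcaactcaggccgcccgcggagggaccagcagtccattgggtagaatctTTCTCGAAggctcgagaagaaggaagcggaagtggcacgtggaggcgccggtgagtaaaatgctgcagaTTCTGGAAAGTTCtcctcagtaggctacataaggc
Dnajb6: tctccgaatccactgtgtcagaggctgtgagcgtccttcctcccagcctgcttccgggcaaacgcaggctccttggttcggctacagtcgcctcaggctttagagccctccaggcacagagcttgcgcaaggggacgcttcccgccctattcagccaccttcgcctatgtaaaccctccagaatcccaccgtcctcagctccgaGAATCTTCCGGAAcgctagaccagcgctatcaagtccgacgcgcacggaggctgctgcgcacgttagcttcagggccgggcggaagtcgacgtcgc
Chordc1: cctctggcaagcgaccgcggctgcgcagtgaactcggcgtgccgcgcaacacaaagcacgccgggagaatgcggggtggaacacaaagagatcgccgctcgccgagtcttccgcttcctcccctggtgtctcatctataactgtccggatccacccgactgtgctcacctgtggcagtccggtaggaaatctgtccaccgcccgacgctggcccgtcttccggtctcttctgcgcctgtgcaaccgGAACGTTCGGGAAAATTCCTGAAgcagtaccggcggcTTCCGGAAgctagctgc
Hspe1: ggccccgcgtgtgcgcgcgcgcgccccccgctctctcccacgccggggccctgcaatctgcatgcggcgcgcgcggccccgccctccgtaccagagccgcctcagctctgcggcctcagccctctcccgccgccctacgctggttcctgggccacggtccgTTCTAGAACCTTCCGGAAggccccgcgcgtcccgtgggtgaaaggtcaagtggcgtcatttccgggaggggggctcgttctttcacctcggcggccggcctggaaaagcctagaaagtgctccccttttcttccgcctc

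After ISO, 2 of the 31 genes rose past 2^0.8-fold (1.74-fold) and none fell. These were Bag3 and Dnaja4, and both were past it at 1 h and at 2 h. Over all genes read, 1.58% were higher at 1 h and 2.73% at 2 h, and 0.218% and 0.812% were lower. The other 29 genes lay between log2 ratios of -0.35 and 0.44 at 1 h and between -0.34 and 0.74 at 2 h. For 2 h over 1 h no member passed the threshold in either direction, with a range of -0.36 to 0.41, where 0.667% of all genes were higher and 0.319% lower.

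Bag3 encodes the exchange factor that links HSP70 with small heat shock proteins and selective autophagy. On the arrays of 0, 1 and 2 h its signals were 142.6, 293.1 and 389.1. Each later array was above the one before it. The log2 ratio to 0 h was 1.04 after the first hour and 1.45 after the second, and no array was below 100. The step from 1 to 2 h was 0.41 on the log2 scale. Among 345 genes of like mean signal (the same twentieth of genes) Bag3 was the 4th highest at both times, and their robust spread was 0.16 at 1 h and 0.25 at 2 h. The array carries 1 probe set for Bag3 under its symbol alone, so no second reading of the gene was had.

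Dnaja4 encodes a J-domain partner of HSP70 of the DNAJA class. Its signals at 0, 1 and 2 h were 31.6, 127.4 and 133.7, so that nearly the whole step fell in the first hour. The log2 ratios of 2.01 and 2.08 at 1 and 2 h placed it 32nd and 38th from the top among 6896 genes. The size depends on how the dim 0 h signal is treated: once every signal under 100 is set to 100, the ratios are 0.35 and 0.42 and the call ends. Dnaja4 was read only because the later arrays passed 100, and of the 273 genes read whose 0 h signal was below 100, 19.4% were past the threshold at 1 h and 28.9% at 2 h. Its other probe sets never reached 100. They had signals of 31.7, 85.5 and 83.8, and of 15.2, 58.8 and 48.0, at 0, 1 and 2 h. All 3 probe sets thus moved the same way, with log2 ratios of 1.43 and 1.95 at 1 h for the dimmer ones.

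**Figure D1:**
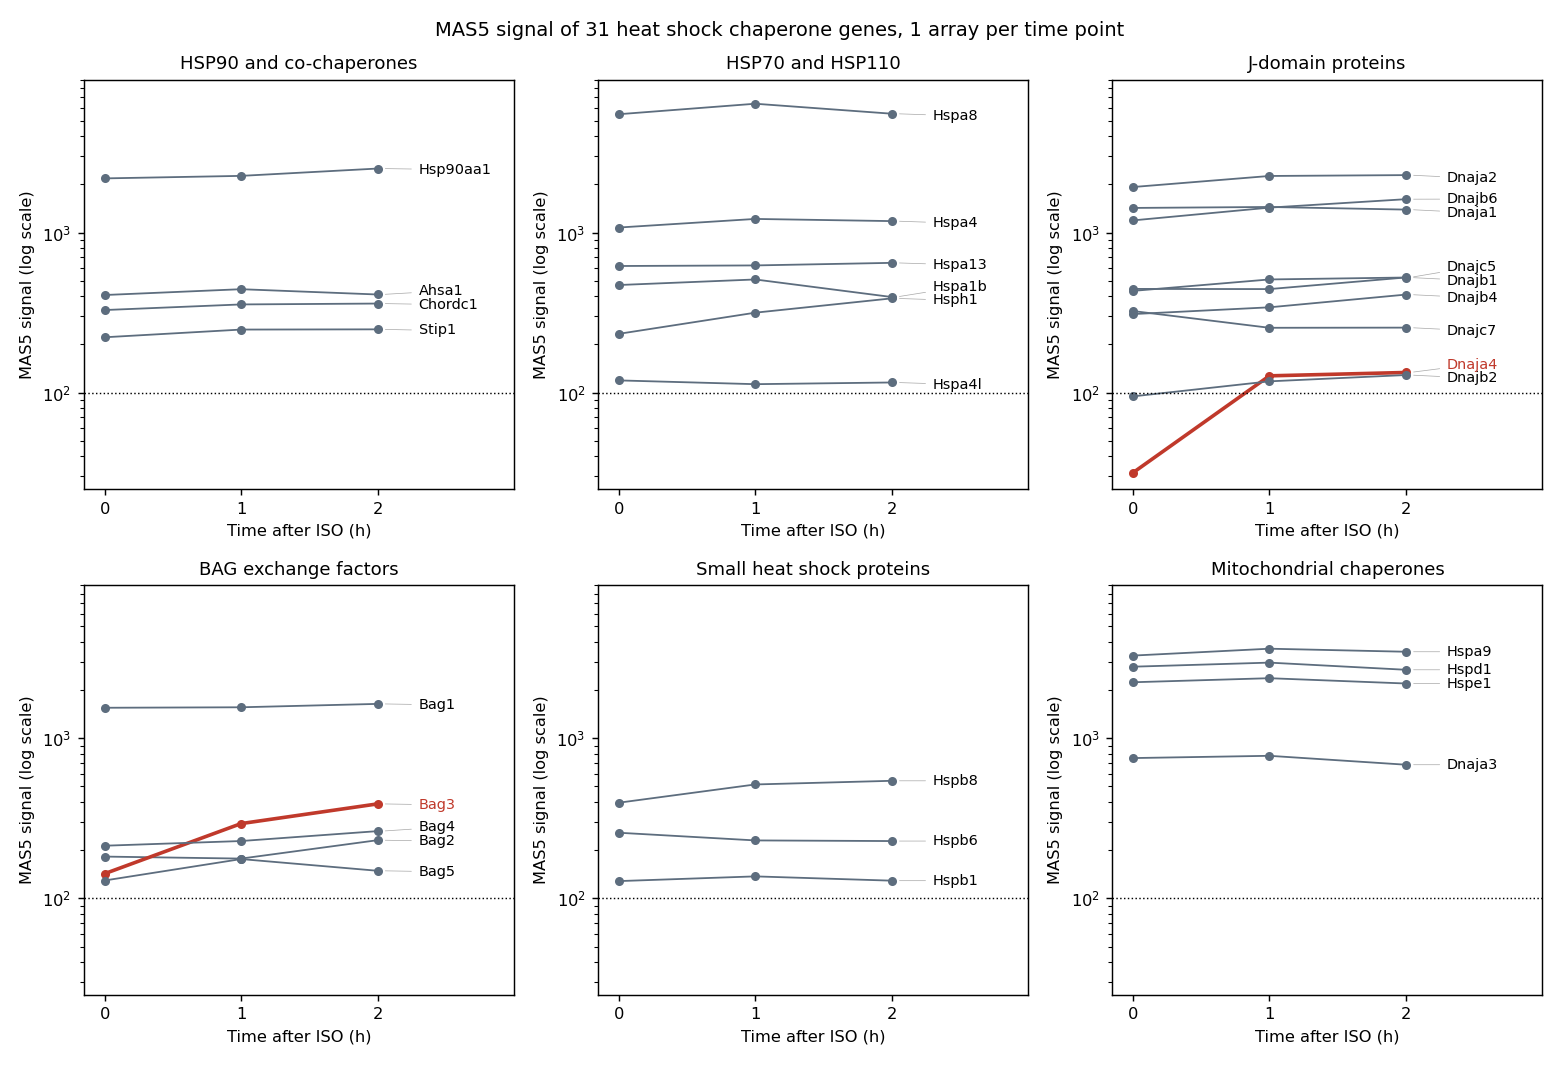
Signals (MAS5, log scale on the vertical axis) by hours of ISO (horizontal axis) of the 31 genes read, 1 panel per role and 1 array per time point, with no error bars. The dotted line marks a signal of 100 and red marks the genes past 2^0.8-fold; Bag3 reaches 389.1 and Dnaja4 133.7 at 2 h.

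The remaining BAG genes did not pass the threshold. Bag2, an inhibitor of the ubiquitin ligase CHIP, had signals of 182.4, 177.2 and 230.9 at 0, 1 and 2 h, so that it was above 0 h at 2 h alone (log2 ratio 0.34). Bag5 had the opposite course, with signals of 129.3, 176.0 and 148.7 and log2 ratios of 0.44 and 0.20. Bag4, a silencer of death receptor signalling, was at 0.10 and 0.30 on its main probe set, and its 3 kept probe sets ranged from 0.10 to 0.43 at 1 h and from 0.24 to 0.53 at 2 h. Bag1 was flat, with signals of 1550.0, 1560.8 and 1638.8.

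Among HSP70 and HSP110 genes, none of the 6 read passed the threshold, and the median of their log2 ratios was 0.15 for 1 h and 0.04 for 2 h. Hsph1, the HSP110 exchange factor of HSP70, came nearest to it. Its signals were 233.0, 315.9 and 388.1 at 0, 1 and 2 h, or log2 ratios of 0.44 and then 0.74. The second probe set of Hsph1 had 112.7, 143.9 and 225.2, which is 0.35 on the log2 scale at 1 h and, past the threshold, 1.00 at 2 h. Taken as the median of both probe sets, Hsph1 is at 0.87 at 2 h, also past it. Both probe sets of Hsph1 stepped up in each hour, as that of Bag3 did.

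Hspa8, the constitutive HSP70 of the cytosol, had signals of 5480.8, 6373.7 and 5521.1, so that its log2 ratio of 0.22 at 1 h was back to 0.01 at 2 h. Its probe sets differed. A further bright one was at 0.15 and 0.08. Another bright one, with signals of 1594.1, 1432.7 and 2390.5, was at -0.15 at 1 h and 0.58 at 2 h. A dim one, with signals of 50.4, 116.2 and 116.6, was at 1.21 on the log2 scale at both times and stands for the gene when probe sets with shared sequence are left out. Hspa1b, the heat-inducible HSP70, had signals of 470.2, 509.3 and 395.6, and its log2 ratios were 0.12 and -0.25. Its other probe sets were lower than at 0 h at both times, at -0.27 and -0.25 at 1 h and -0.34 and -0.33 at 2 h. No probe set of this inducible gene passed the threshold. Hspa1a, its near-identical neighbour, had at most a signal of 73.1, and whether a probe set reads both copies was not tested, so the signals of this pair are uncertain. Hspa4, a further HSP110 gene, was at 0.18 and 0.13 with signals of 1074.7, 1216.2 and 1178.7. Its second kept probe set had 238.3, 166.8 and 243.3, or -0.51 and 0.03, so the probe sets of Hspa4 had opposite directions at 1 h. The main probe set of its relative Hspa4l was at -0.08 and -0.04 and the other kept ones were lower, down to -0.20 and -0.38. Hspa13, a microsomal HSP70, was at 0.01 and 0.07, and its kept probe sets differed in sign at 2 h (-0.08 for the dimmer one).

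J-domain genes had the highest median of the roles at 1 h. Over the 9 read it was 0.23 at 1 h and 0.28 at 2 h, and 7 of 9 were above 0 h at each time. Dnajb1, the main inducible partner of HSP70, had signals of 432.1, 509.4 and 523.8 and log2 ratios of 0.24 and 0.28. Its second probe set was at 0.36 and 0.62. Dnajb6, a suppressor of protein aggregation, had signals of 1190.6, 1430.9 and 1615.4, and its log2 ratios were 0.27 and 0.44. Of its dimmer kept probe sets, one was at 0.80 at 2 h, with a signal of 282.3 against 161.6 at 0 h, and one at 0.08.

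Dnaja2 was at 0.23 and 0.25, with signals of 1923.8, 2255.6 and 2283.8. A dimmer probe set of Dnaja2 had signals of 160.2, 285.0 and 276.0, past the threshold at 1 h (0.83) and below it at 2 h (0.78). Dnajb2 (0.31 and 0.44) and Dnajb4 (0.14 and 0.40) were also above 0 h at both times, and Dnajb2 started at a signal of 94.8. Dnajc5, the cysteine string protein of secretory vesicles, was at 0.00 and 0.24. Dnaja1 was at 0.02 and -0.03 on its main probe set, whereas the other kept ones were at 0.16 and 0.19 at 1 h and at 0.11 and 0.59 at 2 h. The last of these had signals of 394.8, 451.6 and 592.3, so the probe sets of Dnaja1 did not share a course. Dnajc7, a co-chaperone that binds both HSP70 and HSP90, was the lowest gene of the list, with signals of 323.5, 254.2 and 254.8 and log2 ratios of -0.35 and -0.34. It stood among the lowest 4.9% of all genes at 1 h, and did not pass the threshold.

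HSP90 and its co-chaperones were nearly flat. All 4 genes read were above 0 h at both times, with log2 ratios from 0.05 to 0.16 at 1 h and from 0.01 to 0.20 at 2 h. Hsp90aa1, the inducible HSP90, had signals of 2178.4, 2258.7 and 2509.8 on its main probe set. Its other kept probe sets were at -0.06 and -0.05 at 2 h, where the main one was at 0.20, so the probe sets do not share a direction at that time. Stip1, which hands clients from HSP70 to HSP90, was at 0.16 at both times. Chordc1 had signals of 328.1, 355.7 and 360.2, and Ahsa1, the activator of the HSP90 ATPase, had 407.2, 442.8 and 410.3.

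Small heat shock protein genes fell into those that were read (3) and those that were not (2). Hspb8, the partner of BAG3, had signals of 395.7, 514.5 and 542.3 at 0, 1 and 2 h. Its log2 ratios were 0.38 and 0.45, below the threshold, and the second kept probe set was at 0.31 and 0.50. Hspb1 (HSP27) had signals of 128.2, 137.2 and 129.0, and Hspb6 (HSP20), a target of cyclic nucleotide-dependent kinases, had 257.0, 230.1 and 228.0. Cryab, the αB-crystallin gene, had signals of 69.9, 71.3 and 58.3, and Hspb7 had at most 6.0. These genes are also known from muscle. Of 13 markers of striated and smooth muscle 3 were read (Mb, Acta2 and Tagln), and the myogenic factor genes Myod1, Myog and Myf5 were at most at 9.6, 7.4 and 4.8. None of the 13 markers was listed at 0, and their signals summed to 2563.9, 2453.2 and 2245.7 at 0, 1 and 2 h. Their part in the signals of Hspb6 and Cryab was not tested.

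The main probe sets of mitochondrial chaperones kept to a narrow range. Hspd1 (HSP60) had signals of 2797.4, 2966.4 and 2676.2, and Hspe1 (HSP10) had 2236.6, 2370.9 and 2197.0. Both had a log2 ratio of 0.08 at 1 h and were at -0.06 and -0.03 at 2 h. The second kept probe set of Hspe1 had signals of 1380.8, 1633.3 and 1673.8, and its log2 ratios of 0.24 and 0.28 were opposite in sign to the main one at 2 h. The genes are neighbours, transcribed away from each other, and their promoter windows share 285 bases. Hspa9 (mortalin), the HSP70 that pulls proteins into the matrix, was at 0.14 and 0.08, and Dnaja3, its J-domain partner, at 0.05 and -0.14. A dimmer probe set of Hspa9 had signals of 435.9, 413.9 and 753.5 (0.79 at 2 h), whereas its other kept probe sets were at 0.08 and 0.11. Of the heat shock factor genes Hsf2 had signals of 43.6, 35.8 and 41.8, below 100 on all arrays.

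**Figure D2:**
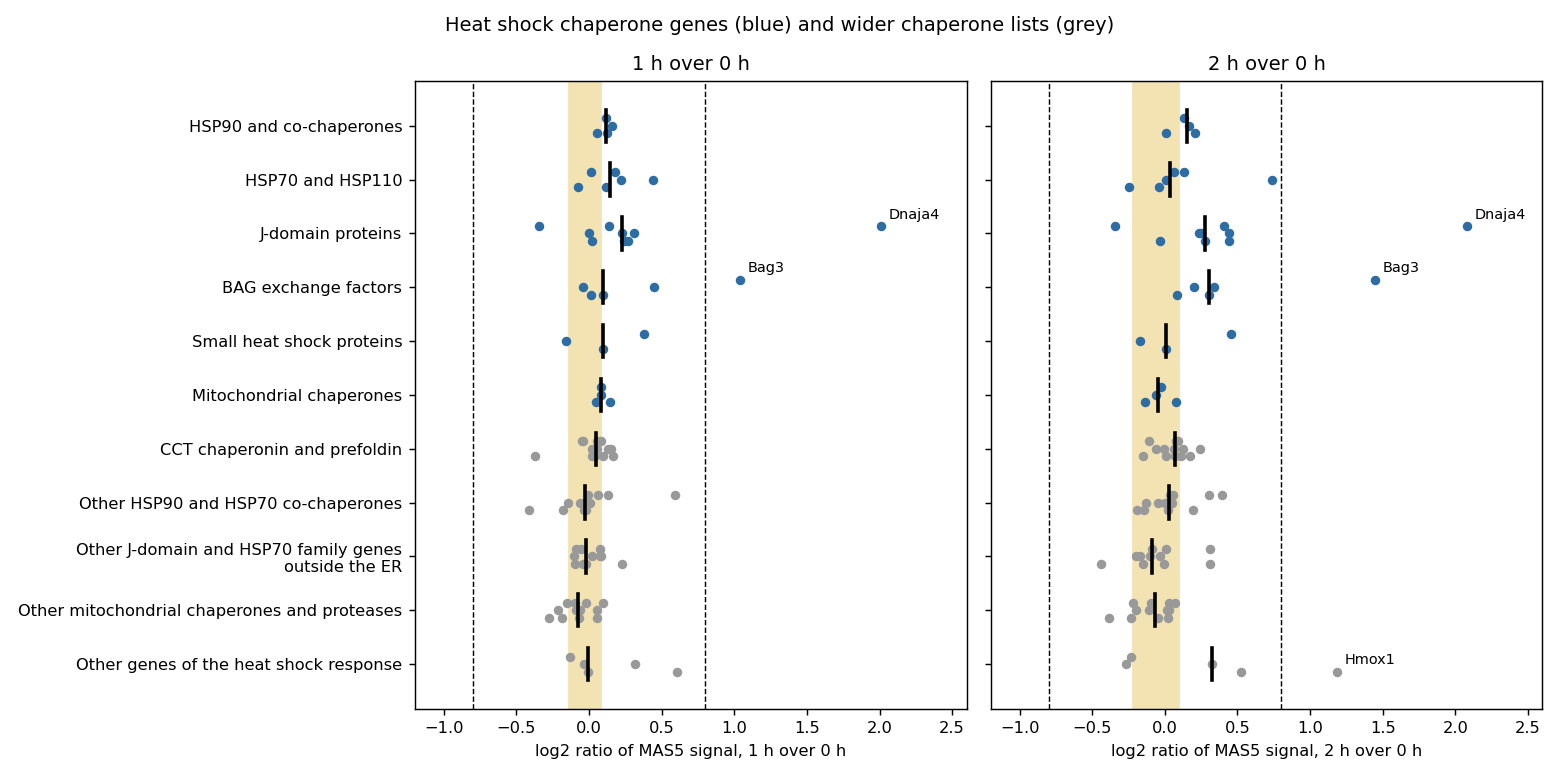
Log2 ratio of MAS5 signal to 0 h (horizontal axis) at 1 h (left) and 2 h (right) for the heat shock chaperone genes by role (blue) and for 5 wider lists (grey), 1 point per gene. Medians are black bars, dashed lines mark 2^0.8-fold and the shaded band spans the middle 50% of all 6896 genes; Bag3, Dnaja4 and, at 2 h, Hmox1 lie beyond the line.

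Below the threshold the list as a whole lay slightly above 0. The median over its 31 genes was 0.12 for 1 h and 0.13 for 2 h, where that of all genes read was -0.02 and -0.07. A signal above that of 0 h was seen for 26 of 31 genes at 1 h and 23 of 31 at 2 h (83.9% and 74.2%), against 44.3% and 38.5% of all genes. Without Bag3 and Dnaja4 the medians are still 0.12 and 0.13. Since brighter genes had higher ratios on these arrays (median 0.05 in the brightest twentieth and -0.13 in the dimmest at 1 h), each gene was also set against genes of like signal. On that scale 25 members at 1 h and 24 at 2 h were above the median of their class, by a median of 0.15 and 0.20. A distance of over 3 robust spreads from that median was reached at 1 h by Bag3, Dnaja4 and Hsph1 and at 2 h by Bag3 and Dnaja4, and by 3.71% and 4.28% of all genes. These are sizes within single arrays, and the genes share those arrays.

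Repeat readings by other probe sets were at hand for 17 of the 31 genes. Within a gene the log2 ratios of the kept probe sets spanned a median of 0.17 at 1 h and 0.30 at 2 h, beside medians of 0.12 and 0.13 of the members' own ratios. Of 60 kept probe sets 4 (6.67%) were higher at 1 h and 5 (8.33%) at 2 h, and none was lower. Of the 10397 kept probe sets of all genes read, 1.54% were higher at 1 h and 2.88% at 2 h, and 0.308% and 0.894% were lower. Counted by gene, 1.81% and 3.38% of the 6896 genes had any kept probe set higher at 1 and 2 h, and 0.406% and 1.22% had one lower. The probe sets of the list that were higher belong to Bag3, Dnaja4, Hspa8 and Dnaja2 at 1 h and to Bag3, Dnaja4, Hspa8, Dnajb6 and Hsph1 at 2 h.

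**Figure D3:**
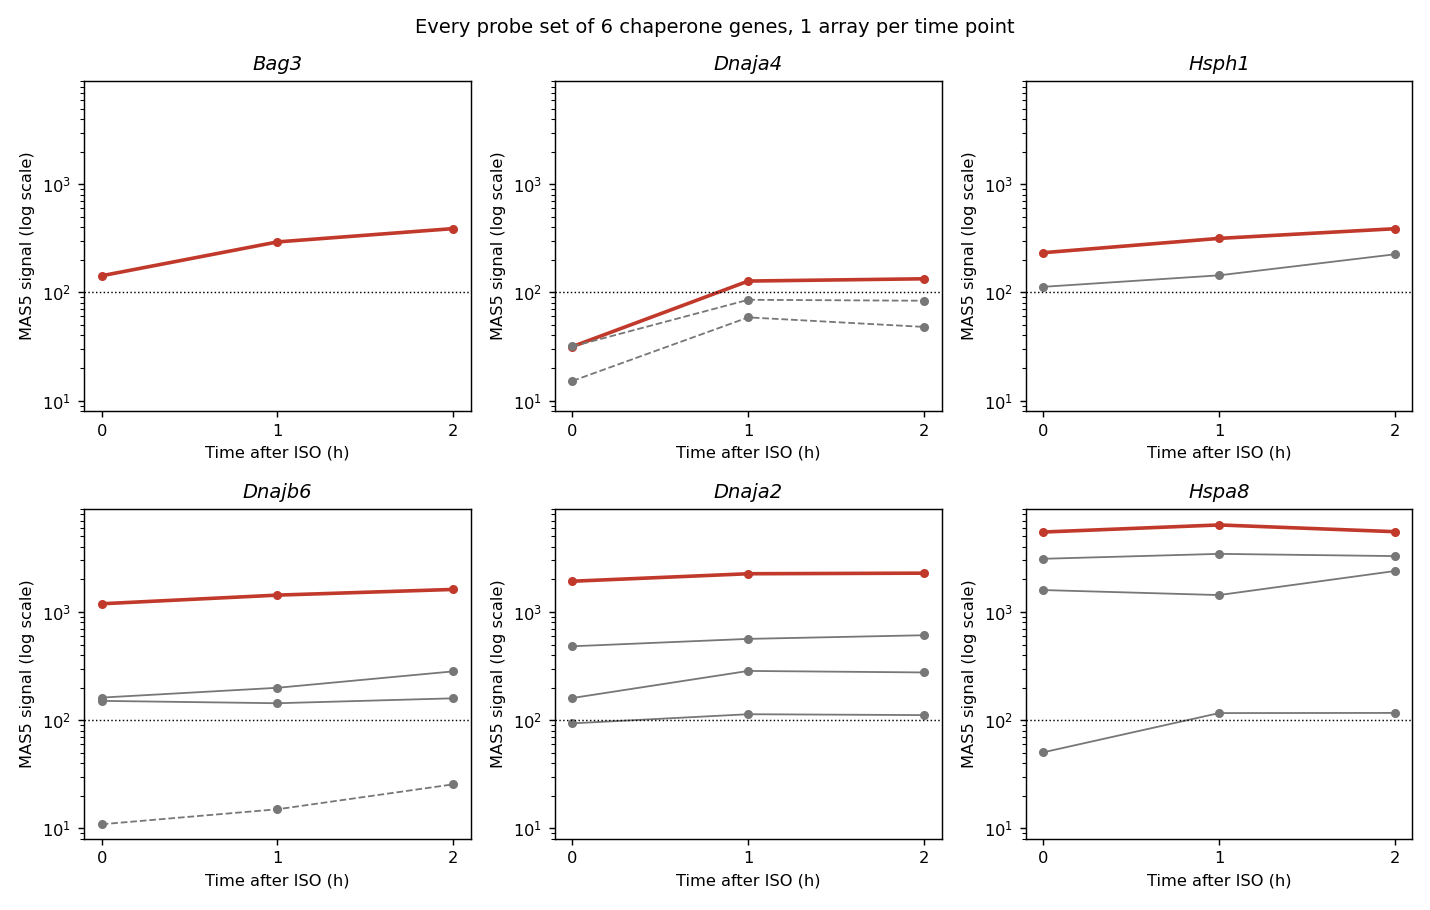
Signals (MAS5, log scale on the vertical axis) by hours of ISO (horizontal axis) of every probe set of 6 genes, 1 array per time point. Red is the probe set that was read, grey solid lines are others that reached 100 (dotted line) and dashed lines are those that did not; the dim probe set of Hspa8 is at 50.4, 116.2 and 116.6 at 0, 1 and 2 h while the bright ones stay near their 0 h signal or, in 1 case, step up at 2 h.

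Chaperone genes outside the list were described with 5 wider lists of 72 genes, of which 54 were read. At 1 h none of the 54 passed the threshold and their median log2 ratio was -0.01. At 2 h 1 gene did, with a median of 0.01. It was Hmox1, heme oxygenase, a stress gene that answers to heat in some cells and to oxidants, with signals of 152.5, 232.3 and 347.1 and log2 ratios of 0.61 and 1.19. The 5 genes read of its list, other genes of the heat shock response, had medians of -0.01 and 0.32. Hspb11 was at -0.01 and 0.53 and Sqstm1 at 0.32 at both times. Serpinh1 (-0.13 and -0.23) and Vcp (-0.04 and -0.27) were below 0 h. The 14 genes of the CCT chaperonin, the ring that folds actin and tubulin, and of prefoldin lay between -0.37 and 0.16 at 1 h and between -0.15 and 0.24 at 2 h. Their medians were 0.05 and 0.07. Of these 14, 11 were above 0 h at 1 h and 10 at 2 h (78.6% and 71.4%), near the 83.9% and 74.2% of the members. Over all 54 genes of the wider lists 46.3% and 53.7% were above 0 h. Cct8 was at 0.13 and 0.24 and Tcp1 at 0.02 and 0.01. Of 12 other co-chaperones of HSP90 and HSP70, Fkbp8 was highest at 1 h (0.59, from a signal of 68.4 at 0 h) and Ppp5c lowest (-0.41). The 11 further J-domain and HSP70 genes had a median of -0.02 and -0.09, beside 0.23 and 0.28 for the J-domain genes on the list. The 12 other mitochondrial chaperones and proteases had a median of -0.08 and -0.07, with Lonp1 at -0.07 and 0.02 and Trap1 at -0.19 and -0.23.

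Promoter windows were found for 29 of the 38 genes, 25 of them read. A pair of heat shock units (TTCNNGAA or GAANNTTC, each its own reverse complement) lay in a window of 13 of these 25 (52.0%), against 12.9% of 5694 genes read that have a window. A 3-unit heat shock element, such a pair extended by a further unit in alternating orientation, lay in windows of 5 of the 25, against 0.544% of those genes. The genes were Chordc1, Dnajb6, Hspd1, Hspe1 and Hsph1. In the sequence of Chordc1 the run GAACGTTCGGGAAAATTCCTGAA spans the start, and in that of Hspe1 the run TTCTAGAACCTTCCGGAA lies upstream of it, in the stretch shared with Hspd1. Of Bag3 the window held GAAGTTTC, from 43 bases after the start, and these are the last letters of the window. The window of Dnaja4 that is shown held GAACGTTC and GAACCTTC, from 90 and 52 bases before the start. A gene with several annotated starts was counted when any of its windows held the motif. Dnaja4 has a second window without a pair, and Dnaja1, Dnajb4, Hspb6 and Hspd1 also have windows without one. The full CREB site TGACGTCA was in no window of the 25, against 3.90% of genes read. Its first letters TGACG, on either strand, were in windows of 17 of the 25 (68.0%), against 39.3%, among them Dnaja4 and not Bag3.

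The genes with a 3-unit element lay within the range of the other genes with a window, Bag3 and Dnaja4 included. Their log2 ratios ran from 0.08 to 0.44 at 1 h and from -0.06 to 0.74 at 2 h, with medians of 0.12 and 0.13. The 12 with neither had medians of 0.14 and 0.15, with a range of -0.35 to 0.44 at 1 h and -0.34 to 0.44 at 2 h. At 2 h Hsph1 (0.74) was above that range. The 8 with a pair alone had medians of 0.13 and 0.21 and include both genes that rose. For Bag3 this class depends on the window, which ends with its pair, so a further unit downstream could not be seen. Over all genes read, 1.13% of 705 with a pair alone were higher past the threshold at 1 h and 3.26% at 2 h. Of 4958 with neither these were 1.57% and 2.54%. Over all 31 genes read with a 3-unit element, members or not, none passed the threshold at either time and the median was -0.01 and -0.03. With TGACG the members had medians of 0.14 and 0.16 (17 genes), and without it of 0.12 and 0.11 (8 genes). In each of these groups 1 gene was higher past the threshold. Over all genes read, 2.15% of 2236 with TGACG were higher past the threshold at 1 h and 3.26% at 2 h. Of 3458 without it these were 1.10% and 2.20%. A match is a description of these letters in a short window and does not show that a factor binds there.

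**Figure D4:**
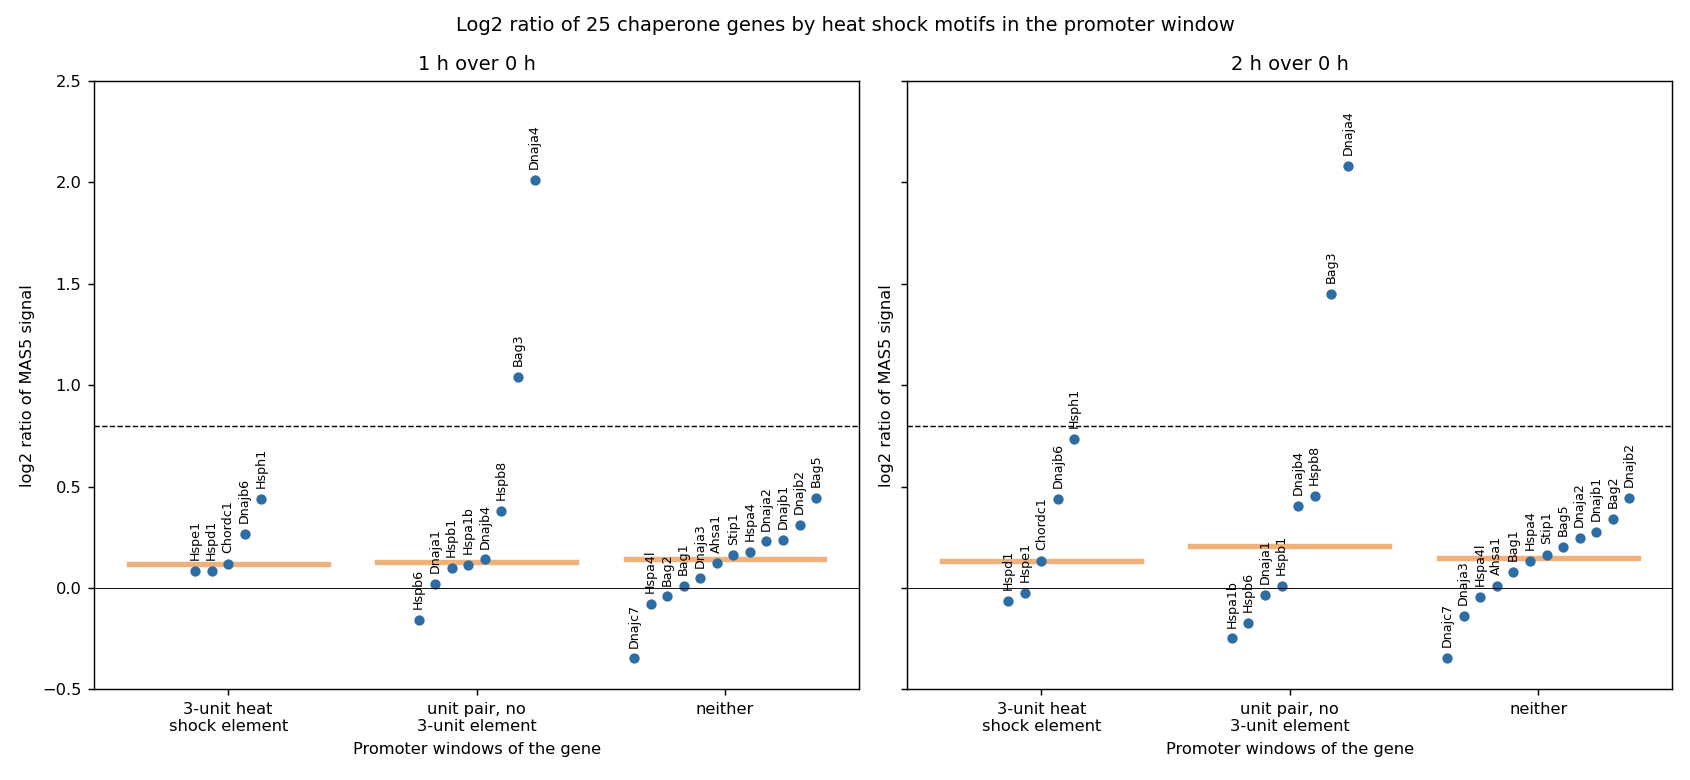
Log2 ratio of MAS5 signal to 0 h (vertical axis) at 1 h (left) and 2 h (right) of the 25 genes read that have a promoter window, by the heat shock motifs in it (horizontal axis), 1 point per gene and 1 array per time point. Orange bars are medians and the dashed line marks 2^0.8-fold; the medians at 1 h are 0.12, 0.13 and 0.14.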

How the data were processed

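Labelled cRNA of iBATs was hybridized by the authors to Affymetrix Mouse Genome 430 2.0 arrays, and MAS5 signals were computed. They are deposited as a linear intensity for each of 45101 probe sets, set to a trimmed mean of 100 on each array (2% cut from each end). The filter on absent calls and low signals in the methods is not applied in the deposited values. Gene names came from the public annotation of the array, in which 34958 probe sets carry 1 symbol and 932 carry several (left out), while 9211 are unnamed here. Identifiers of 34754 were found among RefSeq genes (GRCm38.p6). All 3 value columns were used.

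Ratios were taken on the log2 scale (Python 3.11.15, numpy 2.4.6, pandas 2.3.3). Signals of 0 were given 0.1. A gene was called at 2^0.8-fold, the threshold of the study for 1 h, which is a size and not a test. The robust spread was 1.4826 times the median absolute deviation within 20 classes of mean signal. Among dim genes, the minimum of 100 lets in those that increase and leaves out those that stay low. All 38 genes are named, and those of the wider lists when past the threshold, with up to 4 others per list. The members and lists were chosen with earlier results of these data known. The calculation was tested on simulated data with changes planted in brighter genes only. Calls that start from a dim signal, as that of Dnaja4, were not tested by it. The 10 alternatives concern filter, low signals, scaling, probe set and threshold. Only 1 array per time point limits the precision. Figures were drawn with matplotlib 3.10.9.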

Additional observations from a re-analysis of the deposited data

Results flagged for a closer look

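Several probe sets that were not used to read a gene were past 2^0.8-fold where the one that was read was not. That of Hspa8 was at a log2 ratio of 1.21 after 1 h and of 1.21 after 2 h, where the gene was read at 0.22 and 0.01. That of Hsph1 was at 1.00 at 2 h (read at 0.74), that of Dnajb6 at 0.80 at 2 h (0.44) and that of Dnaja2 at 0.83 at 1 h (0.23). All of these were dimmer than the probe set that was read. Why probe sets of a gene differ was not tested.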

How the results depend on the processing

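The number of members that rose at 1 h and at 2 h was 2 and 2 and depends on Dnaja4, whose 0 h signal is dim. It is 1 and 1, Bag3 alone, when 100 is required on every array, when 200 is required on 1 or more, and when lower signals are set to 100, where Dnaja4 is at 0.35 and 0.42. It is 4 and 5 when any kept probe set may pass, an alternative added after the data were seen, under which 1.81% and 3.38% of all genes read pass (1.92% and 4.3% of those with 2 or more kept probe sets). With probe sets of shared sequence left out, 27 members are read and Hsph1 is not among them. Hspa8, then read from its dim probe set (50.4 at 0 h), joins Bag3 and Dnaja4 at both times. With the median over kept probe sets Hsph1 joins them at 2 h, at 0.87. No member was called lower under any alternative. Over the 10 alternatives the median of the members was 0.10 to 0.13 at 1 h and 0.11 to 0.16 at 2 h, and the log2 ratio of Bag3 was at least 0.90 and 1.27, past the threshold in each. Relative to genes of like signal, also added after the data were seen, the medians are 0.15 and 0.20 and Bag3 is at 1.08 and 1.53. After quantile normalization 24 members at each time lay above 0 h. No paired analysis was possible because each time point has 1 array.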
